A study of Mus musculus with 6 samples.

Results

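The cytosolic ribosomal protein genes are the set described here. They were taken as every probe whose platform symbol begins with Rpl or Rps and a digit, or is Rpsa, Rplp0, Rplp1 or Rplp2, without pseudogenes ending in -ps and without the Rps6k kinases. This gave 96 probes of 65 gene symbols, of 45281 probes and 19057 symbols in all. A probe was kept where it was detected, with a detection p-value under 0.05, on at least 3 of the 6 arrays. Of the 96 probes, 47 probes of 42 genes were kept, which is 49% of them, against 7.56% of all probes (3422 probes). The RNA came from the tibialis anterior, a fast muscle of the lower hindlimb, and each array held 1 mouse. There were 3 Neb SH3-deleted mice, which lack the SH3 domain of nebulin, and 3 wild type mice. All 6 were males aged 8 weeks on a mixed Sv129/Black Swiss background, and the study describes them as biological triplicates.

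Ribosomal proteins and ribosomal RNA make up the small subunit, which decodes the messenger RNA, and the large subunit, which joins the amino acids. Most of these proteins are needed in equal amounts, and their messenger RNAs typically begin with a C and an unbroken stretch of pyrimidines, the terminal oligopyrimidine (TOP) motif, through which the TOR kinase and LARP1 set their translation. In skeletal muscle, ribosome content is tied to growth and loading of the fibre, and Rpl3l, a striated muscle copy of Rpl3, replaces that protein in part of the ribosomes. Nebulin, which Neb encodes, lies along the actin filaments of skeletal muscle, with the SH3 domain at the end held by the Z-disc. The question is whether the transcripts differ in level where that domain is missing.

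The sequences around the annotated transcription starts show how far these genes carry the letters of the TOP motif. The RefSeq table of the GRCm38.p6 mouse assembly held starts for 36 of the 42 kept genes, 45 starts in all. The lines below give 15 bases before the start and 15 from the start on, 5′ to 3′, for genes on which the results turn. The capitals mark the longest run of pyrimidines that overlaps the 5 bases on either side of the start. Rpl12 had the smallest p-value among the ribosomal protein probes, Rpl22 was the 1 gene higher on all Neb SH3-deleted arrays, and Rps6 and Rpl27 had the differences of largest size in each direction. Rpl38, Rps16 and Rps21 were among the probes with lower values, Rplp2 and Rps9 stand for the stalk and for a gene with 2 probes, and Rpl3l is the muscle copy. The first listed start is shown for Rpl22, Rpl3l and Rps21.
Rpl12: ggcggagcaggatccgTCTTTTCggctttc (chr2:32961697-32961726, plus strand)
Rpl38: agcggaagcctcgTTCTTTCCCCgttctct (chr11:114668565-114668594, plus strand)
Rps6: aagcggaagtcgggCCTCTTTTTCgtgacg (chr4:86857353-86857382, minus strand)
Rps9: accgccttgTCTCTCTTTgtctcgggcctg (chr7:3704026-3704055, plus strand)
Rps21: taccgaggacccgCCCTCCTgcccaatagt (chr2:180257364-180257393, plus strand)
Rplp2: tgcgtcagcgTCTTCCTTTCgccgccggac (chr7:141447636-141447665, plus strand)
Rpl22: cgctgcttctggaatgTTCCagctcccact (chr4:152324421-152324450, plus strand)
Rpl27: acgctctgTTCCTgtctgctgctcgtgctg (chr11:101442230-101442259, plus strand)
Rps16: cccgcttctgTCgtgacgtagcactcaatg (chr7:28350674-28350703, plus strand)
Rpl3l: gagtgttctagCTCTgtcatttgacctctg (chr17:24727811-24727840, plus strand)

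The first 6 of these windows held a C within 5 bases of the start followed by at least 4 pyrimidines, and the other 4 did not. Over all starts of kept ribosomal protein genes, 17 of 45 (37.8%) held such a C run. The share was 18.2% of 2665 starts of the other kept genes and 17.1% of the 32851 starts in the table. Among ribosomal protein genes with no kept probe it was 10 of 19 starts (52.6%). An annotated start can lie some bases from the one used in muscle, so a window without the run says only that these letters are not in it. The base at the start itself was a pyrimidine in 40% of ribosomal starts, against 24.9% of the starts of other kept genes. At the fifth base, where the share in the ribosomal set was highest of all positions drawn, it was a pyrimidine in 77.8% and 51.6% of starts. Shares also differed away from the start, such as 71.1% and 50.2% at 32 bases before it. At base 13 they were alike (44.4% and 44.2%).

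**Figure D1:**
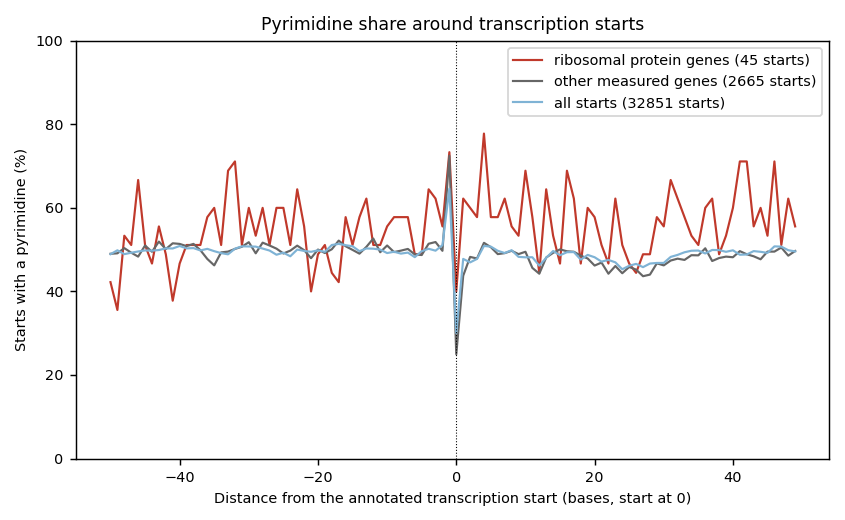
The percentage of annotated transcription starts with a pyrimidine (vertical axis) is drawn at each distance in bases from the start (horizontal axis, start at 0) for the 45 starts of kept ribosomal protein genes, the 2665 starts of other kept genes and all 32851 starts of the RefSeq table. Just past the start, the line of the ribosomal protein genes lies above both others, while the base before the start is mostly a pyrimidine in all 3 sets.

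Core promoter letters were counted from 250 bases before to 50 after each start. CCGGAA, the core of ETS factor sites, was present on either strand in 46.7% of ribosomal starts, 27.5% of the starts of other kept genes and 14.9% of all starts. GGGCGG, a GC box, gave 57.8%, 62.2% and 35.7% in the same order, and AAGATGG, read for the factor YY1, gave 8.89%, 8.14% and 6.34%. TATAAA on the forward strand, from 40 to 20 bases before the start, was found at 0 of 45 ribosomal starts, 1.39% of the starts of other kept genes and 1.87% of all starts. A match is a description of the letters and not a site. The genotype differences described below were not split by these letters with the exception of the C run. Probes of genes with a C run (18 probes, 16 genes) had 7 higher and 11 lower values and a median log2 difference of -0.07. Those of genes without it (23 probes, 20 genes) had 8 higher and 15 lower values and a median of -0.08.

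The arrays were dim, with 4000 to 4667 of all probes detected per array in Neb SH3-deleted muscle and 4506 to 5844 in wild type muscle. Arrays correlated at 0.923 to 0.957 within a genotype and at 0.918 to 0.957 between genotypes, across kept probes. On the first principal component, 32.6% of the variance, Neb SH3-deleted replicate 1 (-12.5) and wild type replicate 2 (-10.8) lay apart from the other arrays (5.12 to 6.69). Neb had 1 probe, which was detected on 0 of the 6 arrays (detection p-values of 0.543 to 0.882) and so does not check the genotype labels. Of 41 probes of 22 muscle fibre genes, 22 probes of 16 genes were kept, among them Acta1 (skeletal actin). All 22 kept probes were detected on all 6 arrays.

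Many probes of the set were near or below the detection limit. Of the 96 probes, 45, 52 and 39 were detected in Neb SH3-deleted replicates 1, 2 and 3, and 50, 53 and 50 in wild type replicates 1, 2 and 3. The lowest number was in Neb SH3-deleted replicate 3, and the groups overlapped. Of the 49 probes left out, 30 were detected on 0 arrays, 12 on 1 and 7 on 2. This left 23 genes with no kept probe. In the large subunit and its stalk these were Rpl4, Rpl6, Rpl7a, Rpl13a, Rpl14, Rpl17, Rpl19, Rpl21, Rpl26, Rpl29 and Rplp0. In the small subunit they were Rpsa, Rps3a1, Rps10, Rps15a, Rps20 and Rps23, and the others were the related symbols Rpl7l1, Rpl22l1, Rpl39l, Rps4l, Rps19bp1 and Rps23rg1. Rplp0 encodes the scaffold of the stalk and is widely used as a reference transcript in PCR. Another 11 genes had kept probes beside probes that were left out, such as Rps24, with 1 kept probe of 4. A probe below detection therefore does not show that the transcript was scarce.

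Of the kept probes 37 were detected on all 6 arrays, 4 on 5, 3 on 4 and 3 on 3. Those just inside the limit were the probes of Rpl27a, Rpl36a and Rps25, detected on 3 arrays. Those just outside it, detected on 2, were probes of Rpl4, Rpl17, Rpl19, Rpl26, Rpl38 and Rps10 and a second probe of Rpl27a. Among kept probes 9 were detected on more wild type than Neb SH3-deleted arrays and 1, that of Rps25, on more Neb SH3-deleted arrays. Because a dim probe can enter through the arrays on which it is bright, counts over kept probes describe these probes and not all members.

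Between the genotypes, 0 of the 47 kept ribosomal protein probes passed an adjusted p of 0.05 (limma with Benjamini-Hochberg adjustment over all 3422 kept probes), against 0 of 3422 (0%) in all. The smallest adjusted p was 0.983, among the ribosomal protein probes as among all. At an unadjusted p under 0.05 there was 1 ribosomal protein probe, that of Rpl12, which was lower, against 144 of all kept probes (4.21%). Of these, 90 (2.63%) were lower in Neb SH3-deleted muscle. The values below are log2 intensities after background correction and quantile normalization, and differences are Neb SH3-deleted minus wild type. Fewer cells of a type and less RNA per cell cannot be told apart in whole muscle. Ribosomal protein genes have many processed copies in the genome, so a probe may read more than 1 transcript, and no level of a probe is set against that of another.

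Across the set, differences were small and went both ways. Of the 47 probes 17 were higher in Neb SH3-deleted muscle, against 1501 of all kept probes (43.9%). The other 30 (63.8%) were lower, against 1921 of all kept probes (56.1%). The median log2 difference was -0.08, with the middle 50% of probes between -0.20 and 0.09 and extremes of -0.53 and 0.47, while the median of all kept probes was -0.03. When arrays were scaled by their medians and not quantile normalized, 40 of the 47 (85.1%) and 69.7% of all kept probes were lower, with medians of -0.24 and -0.09. For ribosomal protein probes the half-width of the 95% interval had a median of 0.42, from 0.34 to 0.91, against 0.40 over all kept probes. The interval lay within 1 log2 unit of 0 for 45 of the 47 (95.7%, against 96.9% of all) and within 1.5-fold for 22 (46.8%, against 59.6%). The sizes of single probes depended on the processing. Without background correction, 20 of the 31 probes of the set named here had a difference over 1.5 times smaller and 0 changed sign. With median scaling 14 were over 1.5 times larger in size, 6 smaller and 8 changed sign.

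**Figure D2:**
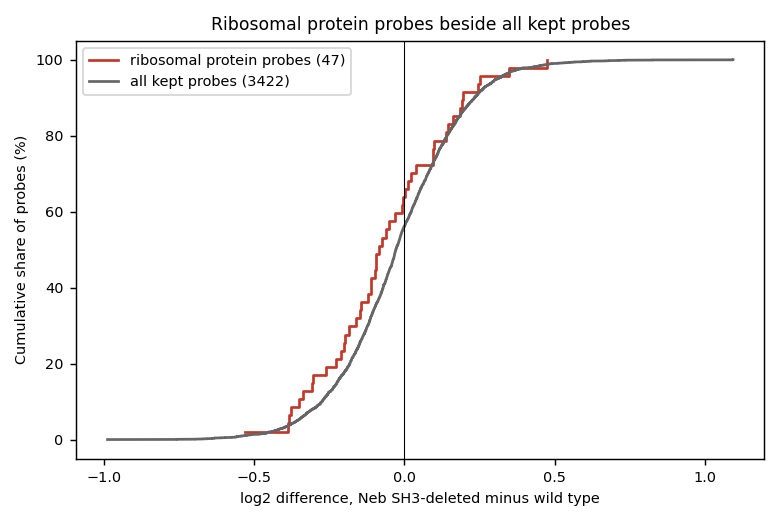
The cumulative percentage of probes (vertical axis) is drawn against the log2 difference, Neb SH3-deleted minus wild type (horizontal axis), for the 47 kept ribosomal protein probes and all 3422 kept probes. The lowest value is -0.53 for the ribosomal protein probes and -0.99 for all kept probes. Just below 0, the line of the ribosomal protein probes runs to the left of the other. It has 63.8% of probes below 0 against 56.1%, and meets the other line above 0.

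Probes detected on all 6 arrays and those detected on fewer are given apart. Of the 37 ribosomal protein probes detected on all 6 arrays, 16 were higher and 21 lower, with a median of -0.03, and 51% of all 1508 such probes were lower. Of the 10 detected on 3 to 5 arrays, 9 were lower, with a median of -0.17, and 60.2% of all 1914 such probes were lower. Those 9 were detected on fewer Neb SH3-deleted than wild type arrays, and the remaining probe, that of Rps25 (0.09), on more. Several, such as those of Rps16, Rps21 and Rpl34 (1 Neb SH3-deleted and 3 wild type arrays each), were kept mainly through the wild type arrays, so the split follows in part from the difference itself, and the classes were not tested against each other.

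By subunit, the large subunit with its stalk had 6 higher and 17 lower probes (23 probes, 22 genes, median -0.10), and the small subunit 10 higher and 11 lower (21 probes, 17 genes, median -0.03). The shares lower were 73.9% and 52.4%, against 56.1% of all kept probes. Lower probes detected on fewer Neb SH3-deleted than wild type arrays were those of Rpl12, Rpl27a, Rpl30, Rpl32, Rpl34 and Rpl36a in the large subunit. In the small subunit they were those of Rps15, Rps16 and Rps21. The counts by subunit were not split by detection. The 3 paralogs Rpl3l, Rpl36al and Rps27l lay at -0.10, -0.16 and 0.25. The difference between the subunits was not tested. In the plot of differences, probes of both subunits are mixed from the lowest to the highest value.

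**Figure D3:**
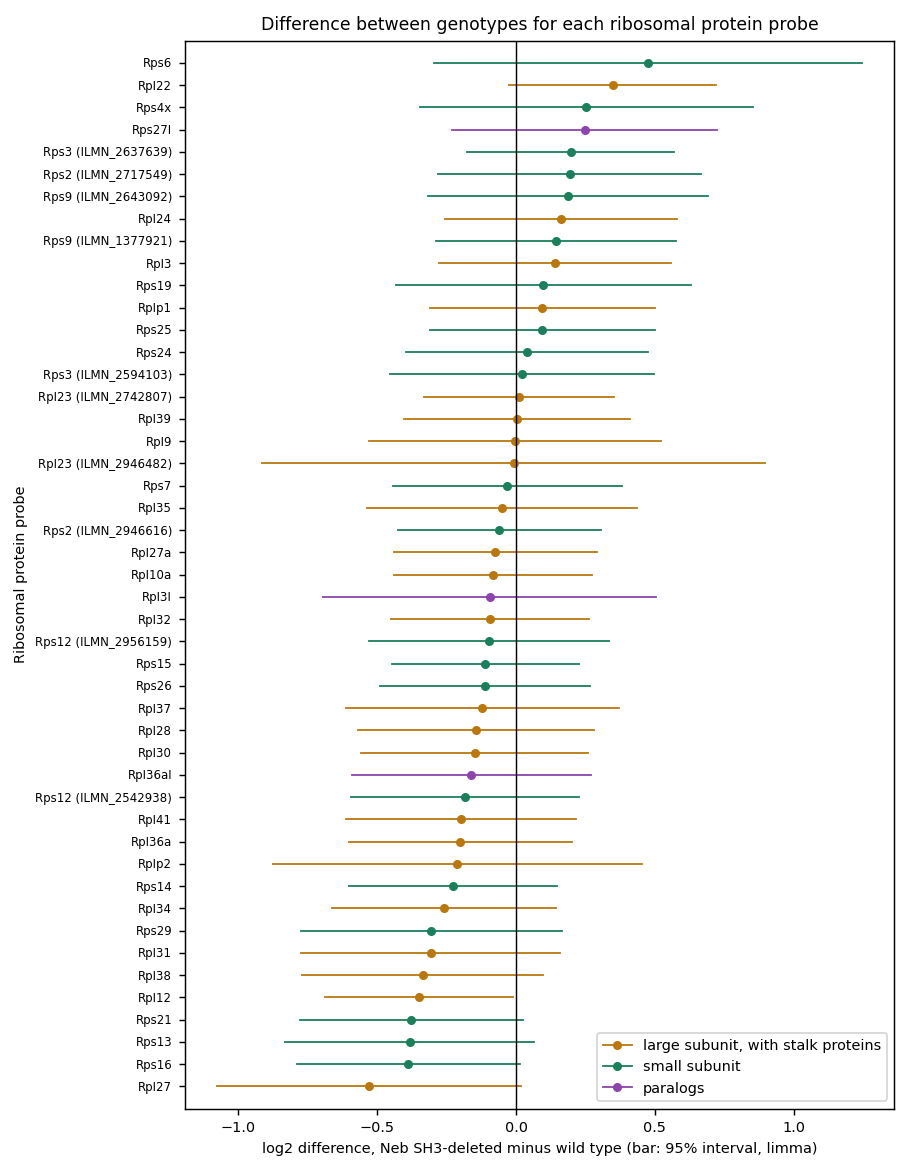
Each row is 1 of the 47 kept ribosomal protein probes, with its log2 difference between Neb SH3-deleted and wild type muscle (point, horizontal axis) and the 95% interval from limma (bar), coloured by subunit. Values run from -0.53 for Rpl27 to 0.47 for Rps6, and the bar of Rpl12 is the one that does not reach 0.

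Rpl12, a large-subunit protein at the base of the stalk where elongation factors bind, was at 4.30, 4.46 and 4.45 in Neb SH3-deleted replicates 1, 2 and 3, and at 4.62, 4.79 and 4.85 in wild type replicates 1, 2 and 3. All Neb SH3-deleted arrays were below all wild type arrays. The log2 difference was -0.35 (95% interval -0.69 to -0.01), with an unadjusted limma p of 0.0446 and an adjusted p of 0.983. It was the 1 ribosomal protein probe of 47 (2.13%) whose groups did not overlap with lower values in Neb SH3-deleted muscle, against 199 of all kept probes (5.82%). The probe was dim and was detected on 2 Neb SH3-deleted arrays and 3 wild type arrays. With 1 array left out the difference ran from -0.42 to -0.30. It was -0.10 without background correction, -0.14 with an offset of 50 and -0.097 with the deposited values.

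Rpl22, a large-subunit protein that also binds viral small RNAs and is needed in mice for a class of T cells, stood the other way. It was at 5.81, 5.86 and 5.86 in Neb SH3-deleted muscle, against 5.76, 5.46 and 5.27 in wild type muscle. The groups did not overlap, though wild type replicate 1 was close to the Neb SH3-deleted arrays, and the wild type arrays spread more (SD 0.24, against 0.03, n = 3 each). The log2 difference was 0.35 (-0.02 to 0.72, adjusted p 0.983 by limma). Rpl22 was the 1 ribosomal protein probe with higher values and no overlap, against 111 of all kept probes (3.24%). Without wild type replicate 3 its difference was 0.24, and it was 0.14 without background correction, 0.14 with the deposited values and 0.16 with median scaling.

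**Figure D4:**
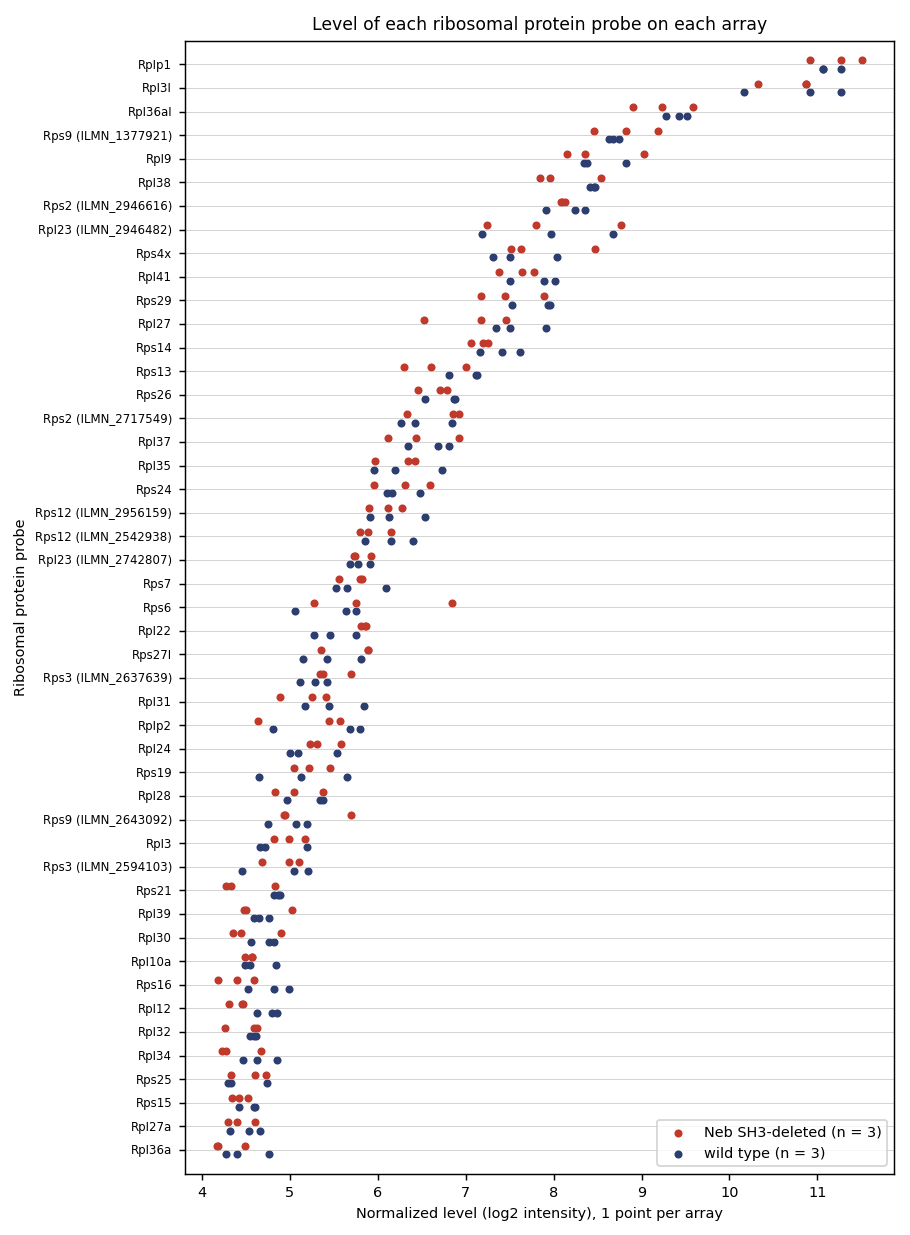
Each row is 1 kept ribosomal protein probe, ordered by mean level, with its normalized log2 intensity (horizontal axis) on the 3 Neb SH3-deleted arrays (upper points of a row) and the 3 wild type arrays (lower points). The groups overlap in every row but those of Rpl22 and Rpl12.

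In the large subunit, 3 further probes were among those of smallest p with lower values. Rpl27, a protein without a bacterial counterpart, was at 7.17, 7.46 and 6.53 in Neb SH3-deleted muscle and at 7.50, 7.34 and 7.91 in wild type muscle. Neb SH3-deleted replicate 3 was the low array and wild type replicate 3 the high one, and the groups overlapped. Its log2 difference of -0.53 (-1.08 to 0.02) was the largest of the set in size, at -0.27 without Neb SH3-deleted replicate 3. Rpl38, whose loss in Tail short mice alters the axial skeleton, was at 7.84, 7.96 and 8.53 in Neb SH3-deleted muscle and at 8.42, 8.46 and 8.47 in wild type muscle. The wild type arrays lay close together (SD 0.03, n = 3), and Neb SH3-deleted replicate 3 lay above all of them. The log2 difference was -0.34 (-0.77 to 0.10), and -0.55 without that array. Rpl31, which lies at the exit of the peptide tunnel, was at 5.41, 4.88 and 5.25 in Neb SH3-deleted muscle, against 5.44, 5.85 and 5.17 in wild type muscle. Its highest array was wild type replicate 2, without which the difference of -0.31 (-0.78 to 0.16) was at -0.13.

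In the small subunit, 4 probes were among those of smallest p with lower values. Rps16, whose tail reaches the transfer RNA in the P site, was at 4.39, 4.59 and 4.18 in Neb SH3-deleted muscle, against 4.52, 4.82 and 4.98 in wild type muscle. Neb SH3-deleted replicate 2 lay above wild type replicate 1, so the groups overlapped, and the difference was -0.39 (-0.79 to 0.01). Rps21, a protein without a bacterial counterpart, was at 4.33, 4.83 and 4.28 in Neb SH3-deleted muscle, against 4.81, 4.89 and 4.86 in wild type muscle. Here 2 Neb SH3-deleted arrays were low and the other lay among the wild type arrays, with a difference of -0.38 (-0.78 to 0.02). Both were dim, and without background correction Rps16 was at -0.12 and Rps21 at -0.11. Rps13, whose bacterial counterpart binds early in subunit assembly, was at 6.998, 6.29 and 6.61 in Neb SH3-deleted muscle and at 7.13, 7.12 and 6.80 in wild type muscle. Its Neb SH3-deleted replicate 1 lay within the wild type range, and the difference of -0.38 (-0.83 to 0.06) was at -0.21 without Neb SH3-deleted replicate 2. Rps29, a small zinc-binding protein, was at 7.18, 7.89 and 7.45 in Neb SH3-deleted muscle and at 7.94, 7.96 and 7.52 in wild type muscle. The ranges overlapped, and the difference of -0.31 (-0.78 to 0.16) was at -0.14 without Neb SH3-deleted replicate 1.

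Rps6, the target of the S6 kinases downstream of TOR, had the highest difference of the set, 0.47 (-0.30 to 1.25). It was at 5.75, 5.27 and 6.84 in Neb SH3-deleted muscle and at 5.75, 5.05 and 5.63 in wild type muscle. One array, Neb SH3-deleted replicate 3, lay far above the other 5, which overlapped between the genotypes. Without it the difference was 0.03, and without Neb SH3-deleted replicate 2 it was 0.82. Rps4x, an X-linked small-subunit protein, was at 7.51, 8.47 and 7.63 in Neb SH3-deleted muscle and at 7.31, 8.04 and 7.50 in wild type muscle. Replicate 2 was the highest array in both groups, and the difference of 0.25 (-0.35 to 0.85) was -0.05 when Neb SH3-deleted replicate 2 was left out and -0.02 under median scaling. Rpl24, which bridges the subunits, was at 5.58, 5.23 and 5.30 in Neb SH3-deleted muscle and at 5.54, 5.003 and 5.09 in wild type muscle. The ranges overlapped, with a difference of 0.16 (-0.26 to 0.58), and with median scaling it was at -0.02.

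Rps2, Rps3 and Rps9, which line the entry of the messenger RNA channel on the small subunit, each had 2 kept probes. For Rps2 the probe ILMN_2717549 was at 6.33, 6.85 and 6.92 in Neb SH3-deleted muscle and at 6.84, 6.27 and 6.42 in wild type muscle. The groups overlapped, with a difference of 0.19 (-0.28 to 0.66). The other Rps2 probe, ILMN_2946616, was at 8.10, 8.09 and 8.13 in Neb SH3-deleted muscle and at 8.35, 7.91 and 8.24 in wild type muscle, a difference of -0.06 (-0.43 to 0.31), and -0.35 with median scaling. The sign therefore differed between probes of the same gene, and neither interval excluded 0. The Rps9 probes were at 0.14 (-0.29 to 0.57) for ILMN_1377921 and 0.19 (-0.32 to 0.69) for ILMN_2643092, and Neb SH3-deleted replicate 3 was the highest array for both. Without that array they were at -0.04 and -0.07. The Rps3 probes were at 0.20 (-0.18 to 0.57) for ILMN_2637639 and 0.02 (-0.45 to 0.50) for ILMN_2594103. With median scaling 1 probe of each gene turned below 0, at -0.04 for Rps2 ILMN_2717549, -0.09 for Rps3 ILMN_2594103 and -0.14 for Rps9 ILMN_1377921.

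The 2 other genes with several kept probes were Rpl23 and Rps12. Rpl23, which lies at the interface of the subunits and binds Mdm2 when free, gave differences of unlike spread. Its probe ILMN_2946482 was at 7.24, 7.80 and 8.77 in Neb SH3-deleted muscle and at 8.68, 7.18 and 7.97 in wild type muscle. These values covered 1.58 log2 units over the 6 arrays, in both genotypes, and the difference was -0.01 (-0.91 to 0.90), at -0.35 with median scaling. Its probe ILMN_2742807 covered 0.25 log2 units, with a difference of 0.01 (-0.33 to 0.35), at -0.20 with median scaling. Rps12, which takes part in cell competition in Drosophila, had differences of -0.18 (-0.59 to 0.22) for ILMN_2542938 and -0.10 (-0.53 to 0.33) for ILMN_2956159.

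The acidic stalk proteins, which recruit the elongation factors, were represented by Rplp1 and Rplp2. Rplp1 was at 11.51, 11.27 and 10.92 in Neb SH3-deleted muscle and at 11.07, 11.07 and 11.27 in wild type muscle, a difference of 0.09 (-0.31 to 0.50). The highest and the lowest array were both Neb SH3-deleted, and with median scaling the difference was -0.15. Rplp2 was at 4.63, 5.57 and 5.45 in Neb SH3-deleted muscle and at 5.80, 4.81 and 5.68 in wild type muscle, a difference of -0.21 (-0.88 to 0.45). Its low arrays were Neb SH3-deleted replicate 1 and wild type replicate 2, the same 2 that lay apart on the first component. Rpl9, a protein near the stalk, was at 9.02, 8.35 and 8.15 in Neb SH3-deleted muscle and at 8.34, 8.38 and 8.82 in wild type muscle, with a difference of -0.01 (-0.53 to 0.52), and -0.26 with median scaling.

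Among the paralogs, Rpl3l, the copy of Rpl3 found in striated muscle, was at 10.87, 10.87 and 10.33 in Neb SH3-deleted muscle and at 10.17, 11.27 and 10.92 in wild type muscle. The wild type arrays covered the whole Neb SH3-deleted range, and the difference was -0.10 (-0.70 to 0.51), at 0.15 without wild type replicate 2 and -0.43 with median scaling. Rpl3, which lies close to the peptidyl transferase centre, was at 4.99, 4.82 and 5.17 in Neb SH3-deleted muscle and at 4.71, 4.65 and 5.19 in wild type muscle, a difference of 0.14 (-0.28 to 0.56). It ran from 0.039 to 0.31 with 1 array left out and was 0.023 with median scaling. For neither gene of this pair did the difference exceed the spread between mice, and the intervals do not show that the levels were equal. Rpl36al, an autosomal copy of the X-linked Rpl36a, was at 9.23, 9.59 and 8.90 in Neb SH3-deleted muscle and at 9.27, 9.51 and 9.42 in wild type muscle, a difference of -0.16 (-0.59 to 0.27), and -0.52 with median scaling. Rps27l, a paralog of Rps27 induced by p53, was at 5.35, 5.88 and 5.89 in Neb SH3-deleted muscle and at 5.81, 5.15 and 5.42 in wild type muscle, a difference of 0.25 (-0.23 to 0.72), which ran from 0.092 to 0.42 with 1 array left out and was 0.065 with median scaling. The genotypes overlapped for both.

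Rps19, the gene most often mutated in human Diamond-Blackfan anaemia, was at 5.45, 5.22 and 5.04 in Neb SH3-deleted muscle and at 5.64, 4.65 and 5.13 in wild type muscle. All Neb SH3-deleted values lay within the wild type range, and the difference was 0.10 (-0.43 to 0.63), at -0.06 with median scaling. Rpl41, a very short peptide between the subunits, was at 7.77, 7.64 and 7.38 in Neb SH3-deleted muscle and at 7.88, 7.50 and 8.01 in wild type muscle, a difference of -0.20 (-0.61 to 0.21). It ran from -0.35 to -0.09 with 1 array left out and was -0.47 with median scaling. The other 16 kept probes had differences from -0.26 (Rpl34) to 0.09 (Rps25), each with groups that overlapped.

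Single arrays differed in how the set behaved. Relative to each probe's mean over the 6 arrays, the median deviation of the 47 probes was -0.06, 0.002 and -0.13 in Neb SH3-deleted replicates 1, 2 and 3, and 0.04, 0.02 and 0.06 in wild type replicates 1, 2 and 3. By medians all Neb SH3-deleted arrays were below all wild type arrays. Over all kept probes the medians were -0.030, 0.014 and -0.054 in Neb SH3-deleted muscle and 0.020, 0.011 and 0.0037 in wild type muscle, so that 2 Neb SH3-deleted arrays were below the wild type arrays there too. By means the Neb SH3-deleted arrays were at -0.07, 0.01 and -0.03 and the wild type arrays at 0.04, -0.01 and 0.06, and the genotypes overlapped, since Neb SH3-deleted replicate 2 lay above wild type replicate 2. Neb SH3-deleted replicate 3 was the lowest of the 6 arrays for 14 probes and the highest for 12, and its deviations had the largest SD (0.35, against 0.23 to 0.29 on the other arrays). Wild type replicate 3 was the lowest array for 3 probes (6.38%), against 15.8% of all kept probes. Neb SH3-deleted replicate 3 was the lowest for 23.7% of all kept probes and the highest for 16.4%, with an SD of 0.26.

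**Figure D5:**
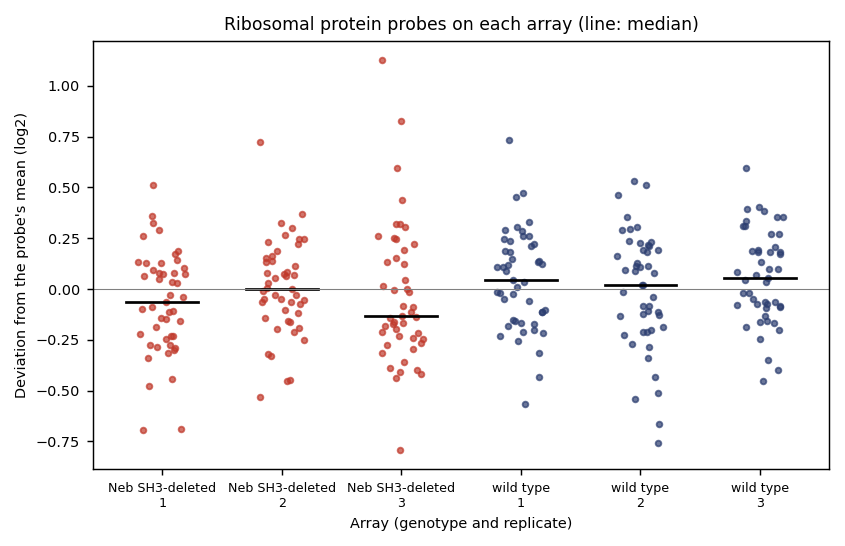
Each point is 1 of the 47 kept ribosomal protein probes on 1 array, as its deviation from the probe's mean over the 6 arrays (vertical axis, log2), with the 3 Neb SH3-deleted arrays on the left, the 3 wild type arrays on the right and a line at each median. The medians lie between -0.13 and 0.06, and Neb SH3-deleted replicate 3 has the widest spread.

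The mean profile of the ribosomal protein probes was 6.14, 6.21 and 6.17 in Neb SH3-deleted muscle and 6.25, 6.20 and 6.26 in wild type muscle. The groups overlapped, since wild type replicate 2 lay below Neb SH3-deleted replicate 2. Of the kept probes outside the set that have a symbol, those whose levels followed this profile most closely over the 6 arrays were Atp5l, a subunit of ATP synthase (Pearson r 0.988), ND1, a subunit of complex I encoded in mitochondria (0.981), Cdc37l1, a cochaperone (0.977), Pcmt1, which repairs damaged aspartyl residues (0.974), and Ppp4r1, a regulatory subunit of protein phosphatase 4 (0.967). Atp5l was at 5.36, 6.18 and 5.76 in Neb SH3-deleted muscle and at 6.38, 5.95 and 6.75 in wild type muscle. It thus spread far more than the profile, and the correlations describe shape and not the size of changes. The probes of Cdc37l1 (4.25 to 4.62 over the 6 arrays), Pcmt1 (4.155 to 4.81) and Ppp4r1 (4.25 to 4.70) were dim. The correlations are the highest among the kept probes with a symbol over 6 points that share their arrays and normalization, given as a description.

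Genes that work with the ribosome also gave 0 probes past the adjusted threshold. Of the other TOP messenger RNA genes, 18 kept probes of 11 genes, 8 were higher and 10 lower (median -0.03). At an unadjusted limma p under 0.05 there were 2, against 4.21% of all kept probes. Eef1a1, the elongation factor that brings transfer RNA to the ribosome, was at 8.28, 8.36 and 8.20 in Neb SH3-deleted muscle and at 7.89, 7.46 and 7.48 in wild type muscle (difference 0.67, 0.29 to 1.05, adjusted p 0.983 by limma). All Neb SH3-deleted arrays were above all wild type arrays, as was so for 111 of all kept probes (3.24%). Npm1, a nucleolar chaperone of ribosome assembly, stood the other way at -0.43 (-0.80 to -0.07), and was detected on 1 Neb SH3-deleted array and 3 wild type arrays. Eif3l, a subunit of the initiation factor eIF3, was at 0.28 (-0.13 to 0.69). The translation initiation factors had 6 higher and 9 lower probes (median -0.10), led by Eif4g2 at -0.39, Eif2b1 at -0.31 and Eif2b5 at -0.31, with 0 at an unadjusted p under 0.05. The Eif4g2 probe was also detected on 1 Neb SH3-deleted array and 3 wild type arrays.

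The mitochondrial ribosomal proteins form the separate ribosome of that organelle, and their 52 kept probes of 42 genes had 19 higher and 33 lower values (median -0.07). Of these 1 probe, that of Mrpl49 (-0.39, -0.74 to -0.04), had an unadjusted limma p under 0.05, against 4.21% of all kept probes. Next by p were Mrpl10 at -0.32 and Mrps31 at -0.33. Most probes of ribosome biogenesis factors were not kept, with 9 kept probes of 7 genes out of 73 probes. They had 5 higher and 4 lower values (median 0.03), with Brix1 at -0.15, Eif6, which keeps free large subunits apart from small ones, at 0.16, and Nop14 at 0.13. In the TOR pathway 2 probes were higher and 3 lower, with Eif4ebp2, a repressor of initiation, at -0.32, Akt1s1 at 0.18 and Mtor itself at -0.15. The p53 genes that respond to free ribosomal proteins had 3 higher and 3 lower probes, with Mdm2 at -0.39 (-1.02 to 0.24), Ccng1 at 0.21 and Phlda3 at -0.18. None of the intervals of the biogenesis, TOR and p53 genes named here excluded 0, and 0 probes of those lists had an unadjusted p under 0.05.

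Markers of other cell types are given for the same arrays. All 8 kept erythrocyte probes, which came from 3 genes, had higher values in the Neb SH3-deleted mice (median 0.58), against 43.9% of all kept probes. Their mean level was 6.18 to 6.43 on the Neb SH3-deleted arrays and 5.60 to 6.13 on the wild type arrays. The globin genes Hbb-bs, Hbb-bt and Hba-a1 were at 0.60, 0.62 and 0.56 by the probe of smallest p of each gene, and a further Hbb-bs probe had the largest difference of the list (1.09). Wild type replicate 1 was the lowest array for the probes of smallest p (5.80, 6.39 and 7.12). For Hbb-bt and Hba-a1 the groups overlapped, with wild type replicate 2 (7.69 and 8.39) inside the Neb SH3-deleted range. Of 10 fibroblast and matrix probes 8 were higher (median 0.29), against 43.9% of all kept probes. Their mean level was 5.55 to 5.77 on Neb SH3-deleted arrays and 4.99 to 5.61 on wild type arrays, so the groups overlapped. Col6a1, Sparc and Mgp were at 0.61 (0.23 to 0.98), 0.76 (-0.17 to 1.69) and 0.31 (-0.12 to 0.74). Sparc was lowest in wild type replicate 2 (5.77, against 7.21 to 8.27 on the other arrays). All 5 kept endothelial and pericyte probes were lower (median -0.20), against 56.1% of all kept probes. Of the 5, 3 were detected on all 6 arrays. Their mean levels were 4.70 to 4.995 on Neb SH3-deleted arrays and 5.002 to 5.07 on wild type arrays. Rgs5, Cav1 and Egfl7 were at -0.40, -0.20 and -0.29. The Cav1 probe was kept mainly through the wild type arrays, being detected on 1 Neb SH3-deleted and 3 wild type arrays. The 22 muscle fibre probes had 12 higher and 10 lower values (median 0.02), at mean levels of 8.16 to 8.43 on Neb SH3-deleted arrays and 8.25 to 8.35 on wild type arrays, with Tcap at 0.45, Acta1 at 0.37 and Myl1 at -0.29. The macrophage, adipocyte and satellite cell lists kept 2, 2 and 1 probes, and the nerve list kept 0. Lyz2 was at -0.27, Cd74 at 0.10, Lep at 0.10, Car3 at -0.13 and Itga7 at -0.28. The Itga7 probe was detected on 1 Neb SH3-deleted and 3 wild type arrays. So few probes do not describe these cell types. All marker lists had 0 probes past the adjusted threshold (limma). At an unadjusted p under 0.05 there were 2 erythrocyte (both of Hbb-bs), 1 fibroblast and 1 endothelial probe, against 4.21% of all kept probes. The part of these cell types in the ribosomal protein values was not tested.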

How the data were processed

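The authors deposited a table with, per the file headers, the mean bead intensity of every probe on every array and its detection p-value, and a second table of processed values on a log2 scale. The submitters' processing notes name lumi without a version. The sources used here give neither its settings, such as a variance-stabilizing step, nor a genome build. Per the labels' protocols, Trizol RNA was labelled with biotin by the Ambion MessageAmp kit. From the intensities, values were made as in limma's neqc: normexp background correction based on the detection p-values with an offset of 16, quantile normalization and log2. Genotypes were tested on kept probes by lmFit and eBayes of limma 3.58.1 (R 4.3.3), two-sided and without covariates, with p-values adjusted over 3422 probes, after tests on simulated data. The number of arrays limits the precision.

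The members and lists were chosen with earlier results of these data known. Of the 45281 probes 34885 had 1 symbol, 18 several and 10378 none, from the platform annotation, and all 96 ribosomal protein probes matched RefSeq by Entrez number. The probes named were the 12 brightest of the set, the 8 higher and 8 lower of smallest p, selected symbols and paralogs, probes without overlap, genes whose probes differ in sign, up to 3 of smallest p per other list, the 5 most alike in profile, and Neb. The kept probes of Rps12, the second Rps3 probe, Rpl34, Rps25 and a further Hbb-bs probe were named outside that rule after their values were seen. Same-numbered arrays were not paired: their deviations correlated at -0.22, -0.18 and 0.09. Alternatives covered background, normalization, filter, probe summary, block, weights, trend and each array left out. No slide is given in the sources used here.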

Additional observations from a re-analysis of the deposited data

How the results depend on the processing

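The count of probes past an adjusted p of 0.05 was 0 in all and 0 in the ribosomal protein set under every alternative run (limma). At an unadjusted p under 0.05 there were 36 of 1141 probes (the strictest detection filter) to 1891 of 45281 (no filter), against 144 of 3422 as reported. The smallest adjusted p of all probes was 0.25 without a filter, 0.30 without background correction and 0.32 with the deposited values, against 0.983 as reported (limma). With a replicate block the count past the adjusted threshold was also 0, with 114 at an unadjusted p under 0.05. A block for the slide could not be tried, since no slide is given in the sources used here. The number of arrays and the dim signal limit all values. The median log2 difference of the ribosomal protein probes stayed below 0, at -0.08 as reported, -0.033 without background correction, -0.24 with median scaling, -0.032 with the deposited values and -0.034 without a filter (96 probes). With 1 array left out it ran from -0.10 to -0.05, and with Neb SH3-deleted replicate 1 and wild type replicate 2 both left out, a choice made after seeing the data, it was -0.10.

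Of 31 probes named from the set, 15 had no change of sign under any alternative. With median scaling the sign turned for Rpl23 ILMN_2742807 (-0.20), Rpl24 (-0.023), Rplp1 (-0.15), Rps19 (-0.061), Rps2 ILMN_2717549 (-0.042), Rps3 ILMN_2594103 (-0.091), Rps4x (-0.023) and Rps9 ILMN_1377921 (-0.14). It turned with cyclic loess for Rpl9 (0.055), with the mean of a gene's probes for Rpl23 (0.0014) and Rps2 (0.066), and with array weights for Rpl3l (0.042), Rps19 (-0.025) and Rps3 ILMN_2594103 (-0.027). With both arrays left out it turned for Rpl24 (-0.048), Rpl3l (0.055), Rplp1 (-0.077) and Rps19 (-0.25). With each array left out in turn, Rpl23 ran from -0.42 to 0.36 (ILMN_2946482) and from -0.052 to 0.072 (ILMN_2742807), Rplp1 from -0.044 to 0.25, Rplp2 from -0.52 to 0.079, Rps19 from -0.15 to 0.35, Rps3 ILMN_2594103 from -0.20 to 0.17 and Rpl9 from -0.26 to 0.17. Rps4x ran from -0.047 to 0.46, Rpl36al from -0.33 to 0.0086, Rpl3l from -0.40 to 0.15, Rps12 ILMN_2956159 from -0.24 to 0.074, Rps9 from -0.039 to 0.32 (ILMN_1377921) and from -0.066 to 0.31 (ILMN_2643092), and Rps2 ILMN_2946616 from -0.19 to 0.031. Without a change of sign, Rpl24 ran from 0.056 to 0.33, Rps2 ILMN_2717549 from 0.071 to 0.38, Rps3 ILMN_2637639 from 0.085 to 0.27, Rps12 ILMN_2542938 from -0.32 to -0.054 and Rps16 from -0.51 to -0.28. With the deposited values 20 of the 31 probes had a difference over 1.5 times smaller, and with an offset of 50, 16 did. The adjusted p of each of these values was above 0.05, and the cause of the turns was not tested.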
